A study of Rattus norvegicus with 26 samples.

Results

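The cyclic AMP phosphodiesterases described here are 10 genes of the soleus count matrix, out of 34034 gene rows, matched by symbol: Pde4d, Pde4a, Pde4b, Pde4c, Pde7a, Pde7b, Pde8a, Pde8b, Pde3b and Pde3a. They were chosen by family membership around Pde4d, which had been picked out for its difference between runners and sedentary rats in these same libraries, so the running differences of the 10 genes are descriptions and carry no p-value. Soleus, a hindlimb muscle built mainly of slow fibres, was taken from aged female rats of 2 lines bred over generations for high running capacity (HCR) or low running capacity (LCR). The 4 groups were HCR rats pair-housed with a running wheel for over 5 months (HCR running, 5 libraries), HCR rats with no wheel (HCR sedentary, 8 libraries), LCR rats with a wheel (LCR running, 5 libraries) and LCR rats with no wheel (LCR sedentary, 8 libraries). All rats ate standard chow ad libitum, and running was voluntary, so the distance run by each animal was not set by the design. The lines are outcomes of selection and differ at many loci, and wheel cages held pairs of rats, so 2 runners may share a cage.

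Each library was made from the 3′ ends of polyadenylated RNA, and expression is given as CPM, a count scaled to the size of its library, after normalisation of the libraries by trimmed means (TMM). The total count over genes was 1099961 to 1818964 in HCR running, 1499357 to 2523942 in HCR sedentary, 1275153 to 2030810 in LCR running and 1489710 to 2457449 in LCR sedentary. The tissue label was checked with 8 markers of slow fibres, which summed to between 26866 and 53130 CPM in every library, with all 8 detected in each group. Libraries HCR running 5 and LCR running 5 have titles that begin with the other line's name, while their genotype field and description give the line used here, and results between the lines are given with and without them. Nothing in the labels ties a library number to a litter, cage or day. The libraries are taken to be separate animals, and the p-values measure the spread between them.

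Cyclic AMP is a second messenger made by adenylyl cyclases when hormones such as adrenaline act on receptors coupled to stimulatory G proteins. It activates protein kinase A, exchange factors of the Rapgef family and cyclic nucleotide-gated channels, and phosphodiesterases end the signal by hydrolysing it. The PDE4, PDE7 and PDE8 enzymes are specific for cyclic AMP, and the PDE3 enzymes hydrolyse both cyclic AMP and cyclic GMP, with cyclic GMP holding back their action on cyclic AMP. In skeletal muscle PDE4 enzymes carry much of the cyclic AMP hydrolysis. PDE4 genes use several promoters, some of which are known to be induced by cyclic AMP through CREB, a factor that binds the sequence TGACGTCA or its shorter core TGACG.

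The RefSeq promoter table for build GRCr8 (250 bases before to 50 after each transcript start) matched 6 of the 10 genes: Pde4d with 5 starts, Pde4a with 4, Pde4b with 2, and Pde8a, Pde8b and Pde3a with 1 each. Pde4c, Pde7a, Pde7b and Pde3b are named only. The core TGACG, read on either strand (as CGTCA on the other), was found in 7097 of all 33469 windows in the table, or 21.2%, and the full TGACGTCA, which reads the same on both strands and contains the core, in 1.83%. Of the 14 windows of the phosphodiesterases, 5 held the core and 0 held the full sequence. These were 2 of the 5 Pde4d windows, 2 of the 4 Pde4a windows and the Pde8a window. The Pde4d and Pde4a windows with a match are shown because the results below turn mostly on these genes and each has several starts. Capitals mark the core on either strand.
Pde4d start 3, GRCr8 chr2:42592499-42592798, plus strand: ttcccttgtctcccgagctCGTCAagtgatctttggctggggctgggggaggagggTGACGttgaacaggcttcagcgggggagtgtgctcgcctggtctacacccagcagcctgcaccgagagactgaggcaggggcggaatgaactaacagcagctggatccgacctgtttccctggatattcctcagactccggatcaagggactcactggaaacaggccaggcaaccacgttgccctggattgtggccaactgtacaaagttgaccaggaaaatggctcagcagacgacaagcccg
Pde4d start 4, GRCr8 chr2:42767367-42767666, plus strand: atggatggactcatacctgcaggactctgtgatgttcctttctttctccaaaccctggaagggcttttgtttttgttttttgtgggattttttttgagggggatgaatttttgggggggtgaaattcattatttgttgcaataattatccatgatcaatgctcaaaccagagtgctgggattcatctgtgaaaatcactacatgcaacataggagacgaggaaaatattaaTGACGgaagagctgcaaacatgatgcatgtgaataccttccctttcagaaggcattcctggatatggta
Pde4a start 1, GRCr8 chr8:27966737-27967036, plus strand: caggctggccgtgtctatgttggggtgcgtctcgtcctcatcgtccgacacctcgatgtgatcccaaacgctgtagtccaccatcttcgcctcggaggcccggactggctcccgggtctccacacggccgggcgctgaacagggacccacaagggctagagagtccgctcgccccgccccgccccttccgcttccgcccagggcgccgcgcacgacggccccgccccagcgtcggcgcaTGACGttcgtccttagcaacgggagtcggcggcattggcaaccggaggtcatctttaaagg
Pde4a start 3, GRCr8 chr8:27999163-27999462, plus strand: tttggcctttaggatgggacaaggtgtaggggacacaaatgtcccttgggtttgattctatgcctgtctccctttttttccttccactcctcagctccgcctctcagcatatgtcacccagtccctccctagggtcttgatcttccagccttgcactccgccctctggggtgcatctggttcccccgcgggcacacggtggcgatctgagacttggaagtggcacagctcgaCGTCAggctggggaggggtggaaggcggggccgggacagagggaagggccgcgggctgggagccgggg
Counting from the transcript start, the first base of the match lies at -231 and -194 in the first Pde4d window, at -19 in the second, at -11 in the first Pde4a window and at -18 in the second. A match in these letters is not evidence of binding. Counts from 3′ ends are summed over a gene's starts, so the data do not tell which of the 5 Pde4d starts was used.

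Pde4d encodes PDE4 isoforms that anchoring proteins hold at specific sites in the cell, among them the calcium release channel of the sarcoplasmic reticulum. It had 302.6, 269.1, 371.7, 264.2 and 301.5 CPM in the 5 HCR running libraries. In the 8 HCR sedentary libraries it ranged between 141 and 239 CPM, with a median of 174 CPM. All 5 HCR runners lay above every HCR sedentary library. The means were 302 ± 42.9 CPM in HCR running (SD, n = 5) and 180 ± 31.7 CPM in HCR sedentary (SD, n = 8), a log2 fold change of 0.75 (SE 0.11).

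In the other line Pde4d had 223.5, 211.2, 223.1, 276.1 and 166.2 CPM in the 5 LCR running libraries. The 8 LCR sedentary libraries ranged between 142 and 206 CPM, with a median of 157 CPM. Of the 5 LCR runners, 4 lay above every LCR sedentary library, and LCR running 5, the library whose title names the other line, lay within the LCR sedentary range. The means were 220 ± 39.2 CPM in LCR running (SD, n = 5) and 160 ± 21.5 CPM in LCR sedentary (SD, n = 8), a log2 fold change of 0.46 (SE 0.12). Ordered by mean, Pde4d was highest in HCR running, then in LCR running, HCR sedentary and LCR sedentary, and each neighbouring pair in that order had overlapping libraries.

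Averaged over the lines, the log2 fold change of Pde4d in runners was 0.60 (SE 0.08), and the running difference in HCR minus that in LCR was 0.28 (SE 0.16). With the line read off the titles, the running differences were 0.61 in HCR and 0.62 in LCR, and without the 2 libraries with conflicting titles they were 0.74 in HCR and 0.54 in LCR. Leaving out 1 library at a time gave 0.66 to 0.81 for HCR and 0.37 to 0.54 for LCR over 26 refits. Over all 10064 genes tested by edgeR's quasi-likelihood test (adjusted p under 0.05), 0.0994% (10 genes) passed for running in HCR. None, or 0%, passed for running in LCR, where 612 genes had an unadjusted p under 0.05, DESeq2 called 2 genes and limma-voom 1. The share was 0.378% (38 genes) for running averaged over lines. These shares are background, and no call is given for the 10 genes in these contrasts, which were used in choosing them.

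**Figure D1:**
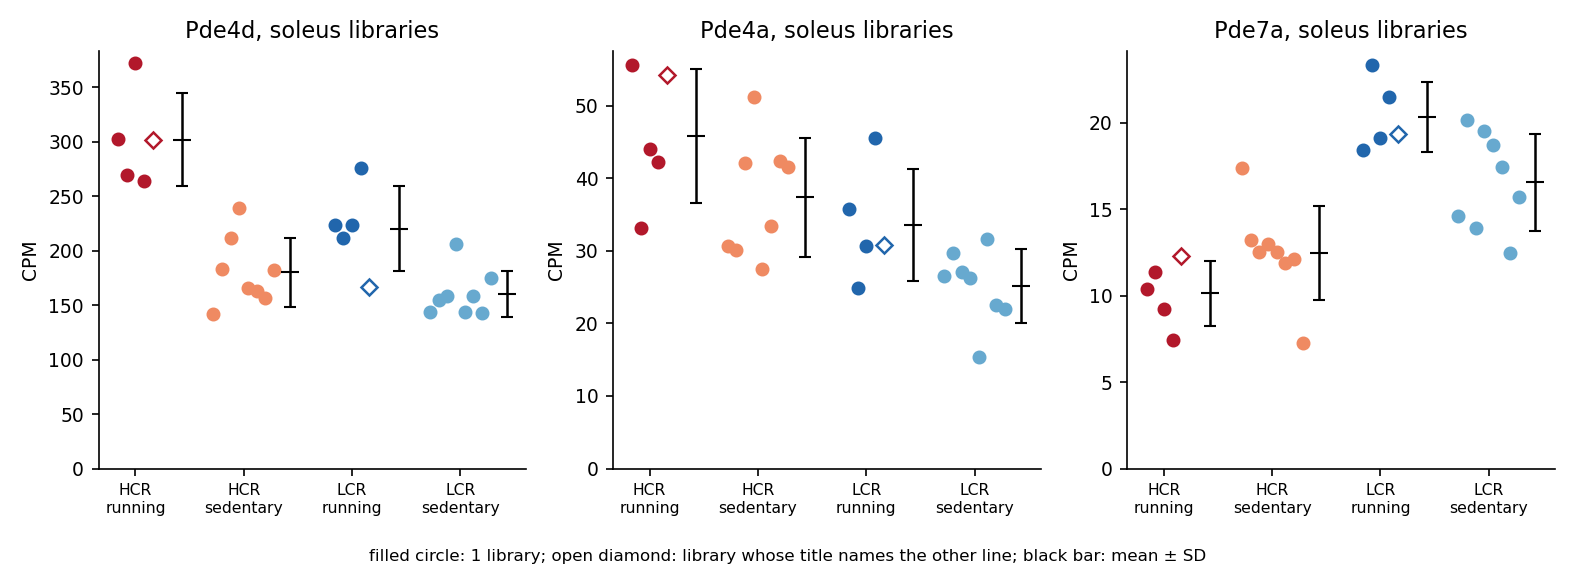
Pde4d, Pde4a and Pde7a in each soleus library, as CPM on linear axes that start at 0, by group. Circles are libraries, open diamonds the 2 libraries whose titles name the other line, and black bars the mean ± SD (n = 5 in each running group, n = 8 in each sedentary group). All 5 HCR runners exceed every HCR sedentary library for Pde4d, and all 5 HCR runners lie below every LCR runner for Pde7a.

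The other PDE4 genes had fewer counts. Pde4a, which encodes a broadly expressed PDE4 enzyme, had 55.5, 33.1, 44.0, 42.2 and 54.2 CPM in HCR running, against 27.5 to 51.1 CPM with a median of 37.5 CPM in HCR sedentary. The groups overlapped, with 2 of 5 runners above every sedentary library and 4 of 5 above the sedentary mean. In LCR running Pde4a had 35.8, 24.8, 30.7, 45.5 and 30.8 CPM, against 15.4 to 31.7 CPM with a median of 26.4 CPM in LCR sedentary. The log2 fold change with running was 0.29 (SE 0.16) in HCR and 0.43 (SE 0.17) in LCR.

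Pde4b, the PDE4 gene best known from leukocytes and brain, averaged 40.5 ± 13.2 CPM in HCR running (SD, n = 5) and 30.8 ± 10.4 CPM in HCR sedentary (SD, n = 8). In LCR it averaged 39.5 ± 2.63 CPM in runners (SD, n = 5) and 32.5 ± 3.11 CPM in sedentary rats (SD, n = 8), and 4 of 5 LCR runners lay above every LCR sedentary library. Its log2 fold change with running was 0.45 (SE 0.18) in HCR and 0.28 (SE 0.18) in LCR. The coefficient of variation of Pde4b was 32.5% in HCR running and 33.9% in HCR sedentary, against 6.67% in LCR running and 9.58% in LCR sedentary. Its median counts were 51, 57, 61 and 56 a library in the same order. The LCR values are smaller than counting noise alone gives at such counts, and the spread of the lines was not tested. Pde4c, the PDE4 gene with the lowest counts, had 3 to 30 counts in a library and averaged 6.42 ± 2.54 CPM in HCR running, 5.82 ± 2.33 CPM in HCR sedentary, 5.33 ± 3.25 CPM in LCR running and 7.21 ± 2.52 CPM in LCR sedentary (SD, n = 5, 8, 5 and 8). Its running difference was 0.14 (SE 0.34) in HCR and -0.49 (SE 0.34) in LCR.

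Pde7a and Pde7b encode the 2 PDE7 enzymes, which have a high affinity for cyclic AMP and are insensitive to classical PDE4 inhibitors. Pde7a had 10.4, 11.4, 9.22, 7.45 and 12.3 CPM in HCR running, against 7.26 to 17.4 CPM with a median of 12.5 CPM in HCR sedentary. In LCR running it had 18.4, 23.4, 19.1, 21.5 and 19.3 CPM, against 12.5 to 20.1 CPM with a median of 16.6 CPM in LCR sedentary. All 5 HCR runners lay below the HCR sedentary mean and all 5 LCR runners above the LCR sedentary mean, while the ranges overlapped within each line. With the line read off the titles, 4 of 5 HCR runners lay below and 4 of 5 LCR runners above the sedentary mean of their line. The running difference was -0.30 (SE 0.18) in HCR and 0.30 (SE 0.16) in LCR on the log2 scale. These values rest on 9 to 50 counts a library.

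Pde7b, the PDE7 gene with more counts, averaged 60.8 ± 15.5 CPM in HCR running (SD, n = 5) and 69.2 ± 11.4 CPM in HCR sedentary (SD, n = 8). It averaged 64.1 ± 12.2 CPM in LCR running (SD, n = 5) and 58.4 ± 6.71 CPM in LCR sedentary (SD, n = 8). The running difference was -0.17 (SE 0.13) in HCR and 0.12 (SE 0.13) in LCR. Runners and sedentary libraries overlapped in both lines.

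Pde8a, whose enzyme has the highest affinity for cyclic AMP in the superfamily and resists the common inhibitor IBMX, averaged 23.1 ± 5.70 CPM in HCR running (SD, n = 5) and 26.4 ± 3.35 CPM in HCR sedentary (SD, n = 8). It averaged 18.5 ± 2.83 CPM in LCR running (SD, n = 5) and 22.7 ± 6.17 CPM in LCR sedentary (SD, n = 8). The running difference was -0.17 (SE 0.17) in HCR and -0.27 (SE 0.18) in LCR, with overlapping libraries. Pde8b, known best from adrenal and thyroid, had 0 to 4 counts in a library and 45 counts over all 26, and did not pass the filter on low counts. The other 9 genes passed it.

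The PDE3 genes had few counts. Pde3b, the insulin-responsive enzyme of fat and liver, averaged 4.59 ± 0.917 CPM in HCR running (SD, n = 5) and 6.29 ± 1.76 CPM in HCR sedentary (SD, n = 8), with a running difference of -0.43 (SE 0.29). In LCR it averaged 5.43 ± 1.35 CPM in runners (SD, n = 5) and 4.48 ± 1.87 CPM in sedentary rats (SD, n = 8), a difference of 0.30 (SE 0.28). Summed adipocyte markers averaged 263 CPM in HCR running and 345 CPM in HCR sedentary, though Lipe went the other way. They averaged 212 CPM in LCR running and 243 CPM in LCR sedentary, where Pde3b was higher in runners. Their 8 genes summed to 211 to 352 CPM in HCR running and 249 to 489 CPM in HCR sedentary, and to 167 to 276 CPM in LCR running and 192 to 385 CPM in LCR sedentary, and their part in the Pde3b values was not tested. In bulk muscle, fewer cells of a type and less RNA per cell cannot be told apart. Pde3a, the form of heart, vessels and platelets, averaged 8.17 ± 3.18 CPM in HCR running and 10.6 ± 4.09 CPM in HCR sedentary (SD, n = 5 and 8), and 9.57 ± 2.89 CPM in LCR running and 10.7 ± 2.82 CPM in LCR sedentary (SD, n = 5 and 8). Its running difference was -0.37 (SE 0.27) in HCR and -0.14 (SE 0.26) in LCR.

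**Figure D2:**
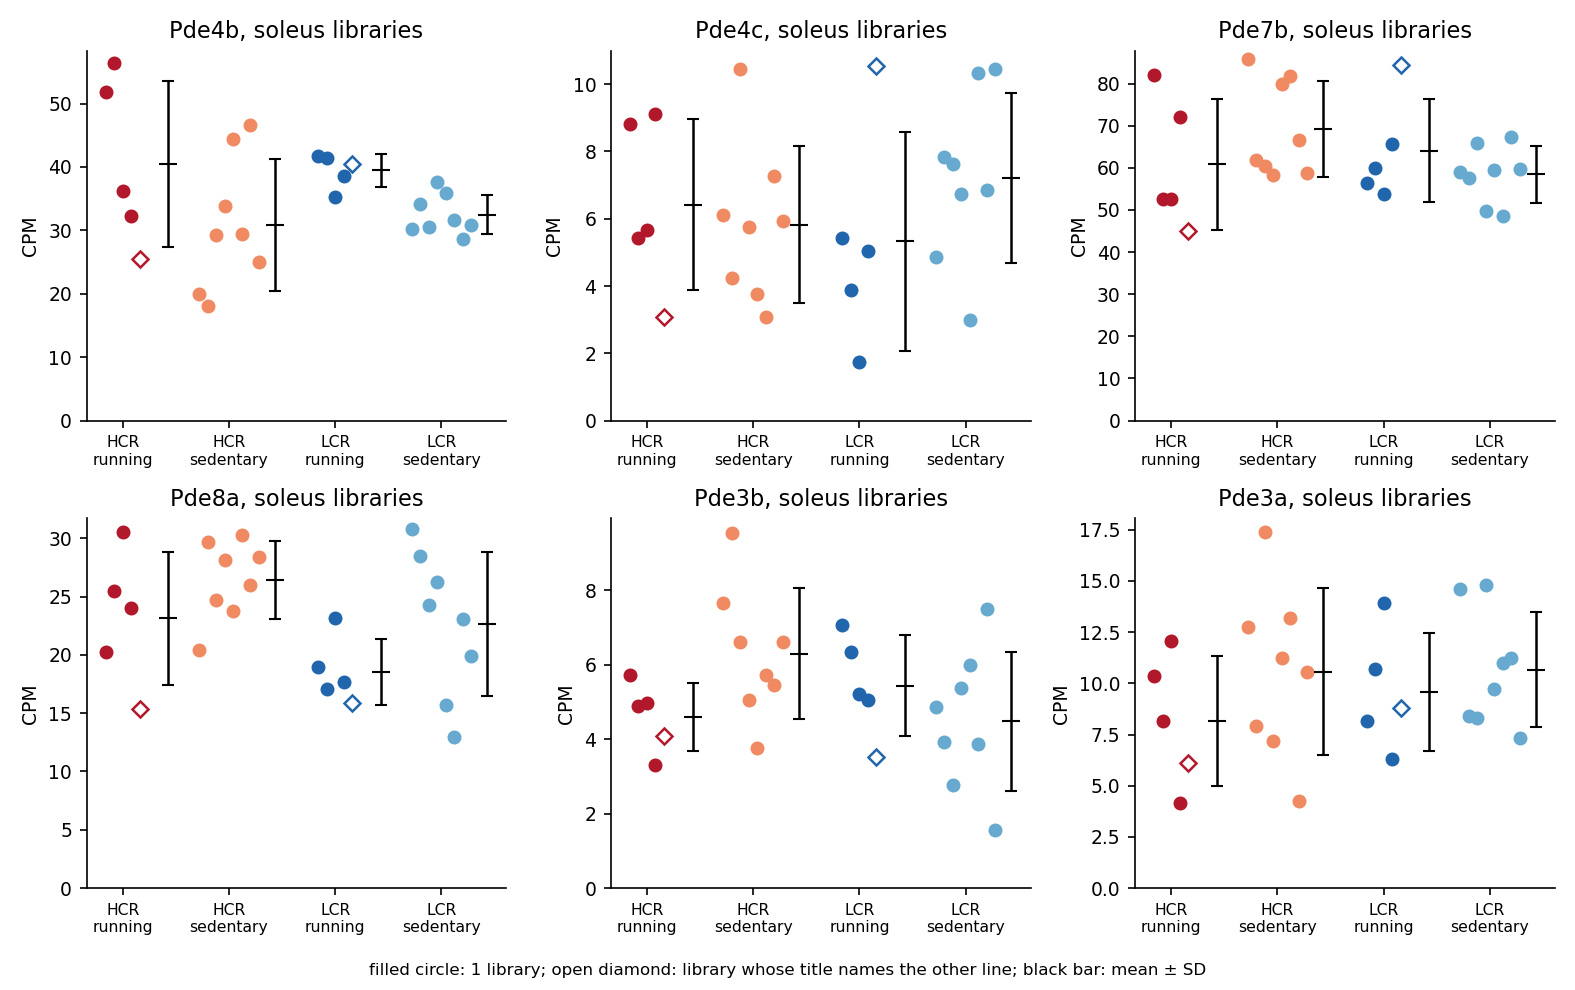
Pde4b, Pde4c, Pde7b, Pde8a, Pde3b and Pde3a in each soleus library, as CPM on linear axes that start at 0, by group, with symbols as in the plot of Pde4d, Pde4a and Pde7a. The runners overlap the sedentary libraries of their own line for all 6 genes, and the 2 libraries whose titles name the other line are at the low or high end of their group for several of them.

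Of the 9 genes that passed the filter, 4 had a running difference above 0 in HCR (Pde4d, Pde4a, Pde4b and Pde4c), with a median of -0.17, beside 49.1% of all genes and a median of -0.0040. In LCR 6 of the 9 lay above 0, with a median of 0.28, beside 50.3% of all genes and a median of 0.0014. Pde4d, Pde4a and Pde4b were above 0 in both lines, and Pde8a and Pde3a below 0 in both.

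**Figure D3:**
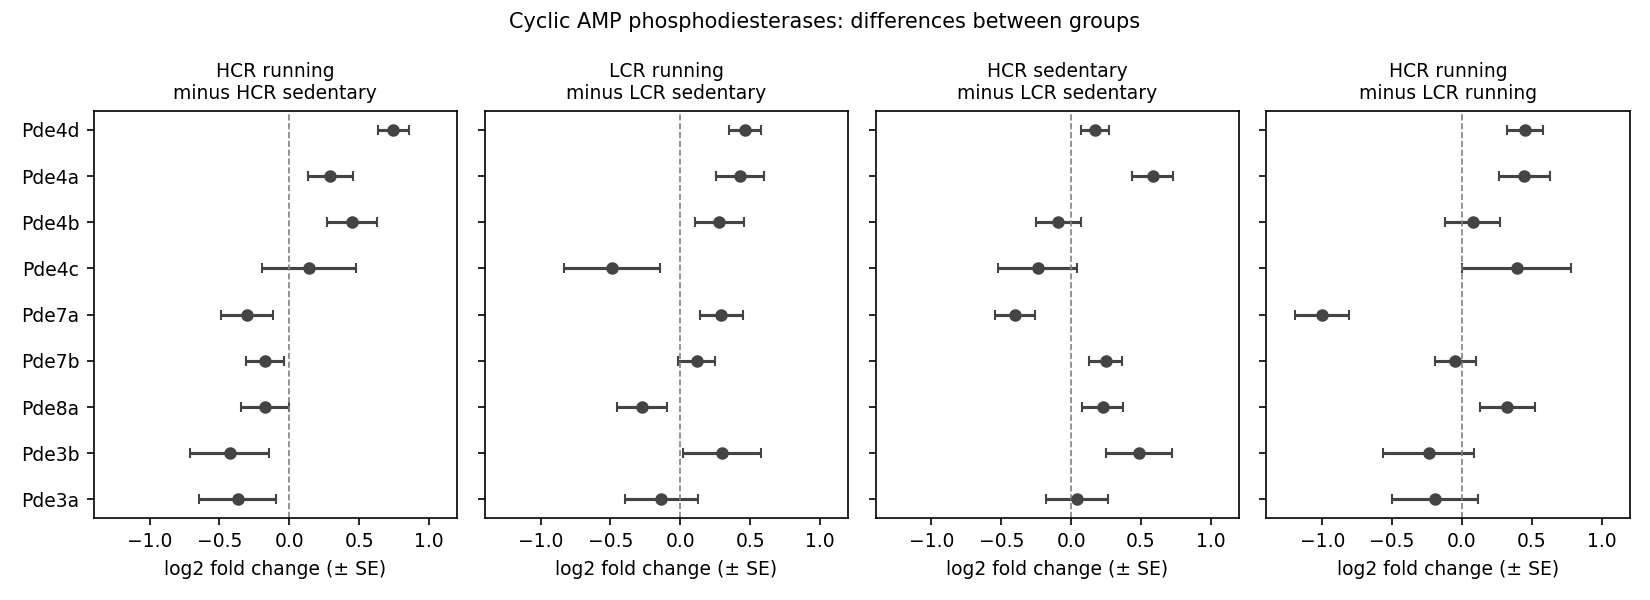
Log2 fold changes (points) with standard errors (bars) for the 9 genes that passed the filter, in 4 comparisons, from 1 fit over all 26 libraries. Pde4d stands at 0.75 and 0.46 in the 2 running comparisons, Pde4a at 0.58 between the sedentary lines and Pde7a at -1.002 between the running lines.

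Because reads come from transcript ends only, counts were not divided by gene length when the genes were summed, and the sums follow how well each gene's 3′ end was captured. The 10 genes summed to 502 ± 51.6 CPM in HCR running and 380 ± 32.2 CPM in HCR sedentary (SD, n = 5 and 8). They summed to 418 ± 38.7 CPM in LCR running and 339 ± 24.9 CPM in LCR sedentary (SD, n = 5 and 8). The other 9 genes, without Pde4d, summed to 200.3 ± 28.9 CPM in HCR running and 199.8 ± 12.4 CPM in HCR sedentary, and to 198 ± 12.5 CPM in LCR running and 179 ± 9.72 CPM in LCR sedentary. Pde4d made up 60.0 ± 4.66% of the summed CPM in HCR running and 47.2 ± 4.77% in HCR sedentary (SD, n = 5 and 8). In the other line it made up 52.4 ± 5.16% in LCR running and 47.1 ± 3.23% in LCR sedentary (SD, n = 5 and 8). The share lay between 55.2 and 65.5% in HCR running and between 41.3 and 54.2% in HCR sedentary, with no overlap. It lay between 43.6 and 57.2% in LCR running and between 43.6 and 52.4% in LCR sedentary, with overlap. Pde4d was picked out for its running difference, so its share restates that choice.

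**Figure D4:**
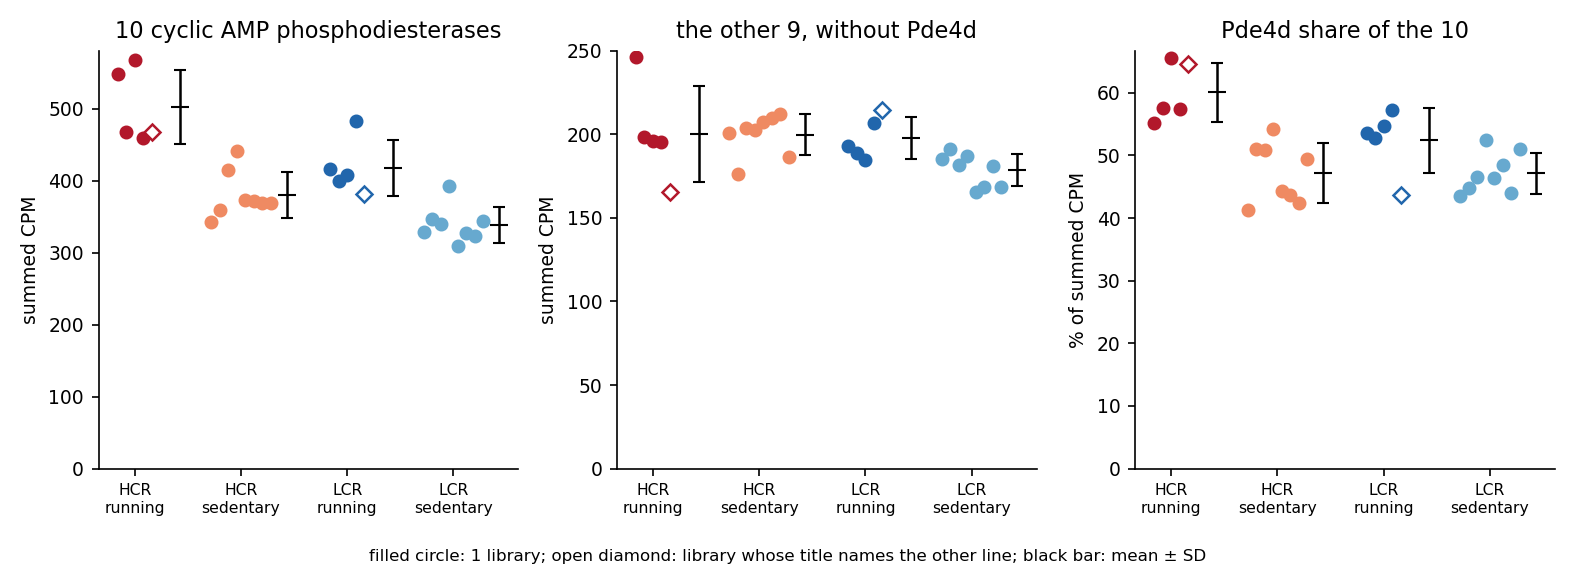
Summed CPM of the 10 cyclic AMP phosphodiesterases, summed CPM of the 9 without Pde4d, and Pde4d as a percentage of the sum, by library and group, on axes that start at 0, with symbols as in the plot of Pde4d, Pde4a and Pde7a. The sum of the 10 averages 502 CPM in HCR running and 380 CPM in HCR sedentary, while the sum without Pde4d averages about 200 CPM in both.

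The lines were then compared at the same wheel access, which is not the running comparison behind the choice of the genes. The comparison used the same libraries, and earlier results of these data were known. The p-values of Pde4d between runners are therefore not free of that choice. Between sedentary rats, Pde4a was higher in HCR. Its means were 37.4 ± 8.16 CPM in HCR sedentary and 25.1 ± 5.10 CPM in LCR sedentary (SD, n = 8 each). The log2 difference was 0.58 with an SE of 0.15, and it passed (adjusted p = 0.0245 by edgeR's quasi-likelihood test). All 8 HCR sedentary libraries exceeded the LCR sedentary mean and 5 of 8 exceeded every LCR sedentary library. Pde4a was the 1 gene of 9 that passed, where 2.72% of all tested genes did. It was called in 21 of 26 refits leaving out 1 library, and not without LCR sedentary 5, 7 or 8 or HCR sedentary 3 or 4, where the adjusted p ranged up to 0.0592.

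Marker sums also differed in mean between the sedentary lines, higher in HCR for some lists and lower for others, with overlapping ranges. Schwann cell markers averaged 238 CPM in HCR sedentary and 206 CPM in LCR sedentary. Vascular smooth muscle and pericyte markers averaged 227 CPM in HCR sedentary and 257 CPM in LCR sedentary. Macrophage markers summed to 239 to 387 CPM in HCR sedentary and 184 to 292 CPM in LCR sedentary over 8 genes. Fast-fibre markers summed to 1928 to 8405 CPM in HCR sedentary and 5635 to 12549 CPM in LCR sedentary over 7 of 8 listed genes, and adipocyte markers to 249 to 489 CPM in HCR sedentary and 192 to 385 CPM in LCR sedentary. All listed macrophage and adipocyte genes were detected. Their part in the Pde4a difference was not tested. Pde4d itself differed by 0.17 between the sedentary lines (SE 0.10, adjusted p = 0.440 by edgeR's quasi-likelihood test), and Pde7a by -0.40 (SE 0.14, adjusted p = 0.131 by the same test). The remaining 6 genes ranged between -0.24 for Pde4c and 0.49 for Pde3b and did not pass.

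Between runners, Pde7a was lower in HCR. It averaged 10.1 ± 1.88 CPM in HCR running and 20.3 ± 2.03 CPM in LCR running (SD, n = 5 each). The log2 difference was -1.002 with an SE of 0.19, and it passed (adjusted p = 0.00433 by edgeR's quasi-likelihood test). The highest HCR runner had 12.3 CPM and the lowest LCR runner 18.4 CPM, so the groups did not overlap. Pde7a was the 1 gene of 9 that passed, where 0.626% of all tested genes did, and it was called in all 26 refits that left out 1 library. Without the 2 libraries with conflicting titles the difference was -1.07 (adjusted p = 0.0131 by edgeR's quasi-likelihood test). With the line read off their titles it was -0.76 and did not pass (adjusted p = 0.521 by edgeR's quasi-likelihood test). Those libraries had 12.3 CPM (HCR running 5) and 19.3 CPM (LCR running 5).

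Pde7a is known for its expression in T cells as well as muscle. Lymphocyte markers were sparse, summing to 10.2 to 19.5 CPM in HCR running and 10.6 to 25.5 CPM in LCR running over 8 genes. Most of that sum was Ptprc, which averaged 12.7 CPM in HCR running and 16.7 CPM in LCR running. The T cell genes were near 0, with Cd3e at 0.20 and 0.10 CPM and Cd3d at 0.37 and 0.46 CPM in the same order. The B cell marker Ms4a1 was at 0 in every library. The sum of fast-fibre markers did not overlap, at 2335 to 4432 CPM in HCR running and 4723 to 12372 CPM in LCR running. Taken singly, Myh2, Tnni2, Tnnt3 and Tnnc2 did not overlap, while Myh1, Myh4 and Atp2a1 did. Myh4 averaged 87.4 CPM in HCR running and 45.8 CPM in LCR running. The part of these markers in the Pde7a difference was not tested. The log2 difference of Pde4d between HCR and LCR runners was 0.45 (SE 0.13), with 5 of 5 HCR runners above the LCR running mean, and it did not pass (adjusted p = 0.111 by edgeR's quasi-likelihood test). That difference was 0.37 without the 2 libraries with conflicting titles and 0.16 with the line taken from the titles. Pde4a differed by 0.45 (SE 0.18, adjusted p = 0.410 by edgeR's quasi-likelihood test), by 0.37 without those libraries and by 0.15 with the line taken from the titles. The other 6 genes ranged between -0.24 for Pde3b and 0.39 for Pde4c.

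The difference between the running responses of the lines was largest in size for Pde3b, at -0.73 (SE 0.40), then Pde4c, at 0.63 (SE 0.48), and Pde7a, at -0.60 (SE 0.24). For Pde4a it was -0.14 (SE 0.24), for Pde4b 0.17 (SE 0.25), for Pde7b -0.29 (SE 0.19), for Pde8a 0.10 (SE 0.25) and for Pde3a -0.23 (SE 0.38). Over all genes, 0% passed for this difference by edgeR's quasi-likelihood test, 592 genes had an unadjusted p under 0.05, and DESeq2 and limma-voom each called 0.

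Marker sums beside the running difference of Pde4d in HCR overlapped in range, while some means differed. Fast-fibre markers averaged 3248 CPM in HCR running and 5396 CPM in HCR sedentary, and Schwann cell markers 180 and 238 CPM. In LCR, fast-fibre markers averaged 8772 CPM in runners and 8998 CPM in sedentary rats, and Schwann cell markers 212 and 206 CPM. Slow-fibre markers summed to 37470 to 52504 CPM in HCR running and 26866 to 53130 CPM in HCR sedentary, and fast-fibre markers to 2335 to 4432 CPM in HCR running and 1928 to 8405 CPM in HCR sedentary. Schwann cell markers summed to 123 to 238 CPM in HCR running and 184 to 348 CPM in HCR sedentary. Macrophage markers summed to 234 to 369 CPM in HCR running and 239 to 387 CPM in HCR sedentary. Their part in the Pde4d difference was not tested.

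Genes whose log2 CPM was most like that of Pde4d were sought over the 26 libraries, among 4397 genes that averaged 5 or more on that scale. The 5 highest Pearson correlations were those of Naa38, a subunit of an N-terminal acetyltransferase (r = 0.78), Nfkbia, the inhibitor that holds NF-kB in the cytoplasm (r = 0.77), Tsc22d3, the glucocorticoid-induced leucine zipper (r = 0.75), Nrep (r = 0.73) and Lias, the lipoic acid synthase of mitochondria (r = 0.73). Without HCR running 3 and HCR running 1, the libraries farthest from the median of Pde4d, these were 0.74, 0.63, 0.69, 0.65 and 0.64 in the same order. The libraries share group, depth and muscle composition, and the groups differ in Pde4d, so these are descriptions across libraries.

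Nfkbia averaged 322 ± 85.9 CPM in HCR running and 230.4 ± 13.5 CPM in HCR sedentary (SD, n = 5 and 8), and 223 ± 29.1 CPM in LCR running and 184 ± 15.2 CPM in LCR sedentary (SD, n = 5 and 8). Tsc22d3 averaged 88.6 ± 16.1 CPM in HCR running and 73.1 ± 5.32 CPM in HCR sedentary (SD, n = 5 and 8), and 92.1 ± 20.8 CPM in LCR running and 60.4 ± 7.60 CPM in LCR sedentary (SD, n = 5 and 8). After the mean of each group was subtracted, the closest genes were others: Ccdc107 (r = 0.66), Flot2, a membrane scaffold protein (r = 0.65), Cox7a2l, a factor that assembles respiratory supercomplexes (r = 0.64), Wdr18 (r = 0.63) and Klhl33 (r = 0.63). Within groups Pde4d correlated with Pde4a at r = 0.49 and with Pde7b at r = -0.55, and with the other 7 family members between -0.10 and 0.23. Without the 2 libraries farthest from the group means, the Pde4a value was 0.43 and the Pde7b value -0.44.

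The rest of the cyclic AMP pathway was covered by 7 lists of 91 genes, all in the table, of which 61 passed the filter. In the running comparisons 0 of the 61 passed in either direction by edgeR's quasi-likelihood test, in HCR, in LCR or averaged over the lines, with 7, 5 and 9 at an unadjusted p under 0.05, beside 12.5%, 6.08% and 12.7% of all tested genes. DESeq2 called 2 of them averaged over the lines, Ppargc1a and Fos. The median log2 difference of the 61 was -0.02 in HCR and -0.01 in LCR.

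Among the other phosphodiesterases, which include the dual and the cyclic GMP enzymes, 6 of 15 genes passed the filter. Pde9a, a cyclic GMP enzyme, had a log2 difference of -0.41 (SE 0.36) in HCR and -0.86 (SE 0.36) in LCR. Pde1c, a calmodulin-dependent enzyme, had -0.76 (SE 0.42) in HCR and -0.12 (SE 0.37) in LCR. Neither passed.

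Of the receptors and G proteins, 11 of 18 passed the filter. Ptger4, the prostaglandin E receptor coupled to cyclic AMP, had -0.44 (SE 0.24) in HCR and -0.33 (SE 0.25) in LCR. Crhr2, the urocortin receptor, had -0.94 (SE 0.48) in HCR and -0.19 (SE 0.45) in LCR. Of the adenylyl cyclases, 4 of 10 passed the filter. Adcy9, a widely expressed cyclase, had 0.37 (SE 0.14) in HCR and 0.02 (SE 0.14) in LCR, and Adcy2 had 0.03 (SE 0.20) in HCR and -0.20 (SE 0.20) in LCR. None of these 4 genes passed.

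Of protein kinase A and its inhibitors, 8 of 9 passed the filter. Prkaca, the main catalytic subunit, had 0.19 (SE 0.10) in HCR and 0.27 (SE 0.10) in LCR, with all 5 runners above the sedentary mean in each line (adjusted p = 0.148 averaged over the lines, by edgeR's quasi-likelihood test). Prkar2b, a regulatory subunit abundant in fat and nerve, had -1.10 (SE 0.35) in HCR and -0.35 (SE 0.36) in LCR, and did not pass. Of the anchors and PDE4 partners, 12 of 13 passed the filter. Akap10 had -0.12 (SE 0.22) in HCR and -0.38 (SE 0.22) in LCR, and Akap7, which anchors the kinase near calcium handling proteins, 0.13 (SE 0.16) in HCR and 0.10 (SE 0.17) in LCR, without passing.

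Of the CREB family and genes induced by cyclic AMP, 14 of 17 passed the filter. Ppargc1a, the coactivator of mitochondrial biogenesis, had 0.27 (SE 0.17) in HCR and 0.69 (SE 0.17) in LCR, with all 5 runners above the sedentary mean in each line. Averaged over the lines it was 0.48 (SE 0.12) and just missed the threshold (adjusted p = 0.0569 by edgeR's quasi-likelihood test). Fos, an immediate early gene, had -1.43 (SE 0.50) in HCR and -1.06 (SE 0.48) in LCR, with all 5 runners below the sedentary mean in each line (adjusted p = 0.125 averaged over the lines, by edgeR's quasi-likelihood test).

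**Figure D5:**
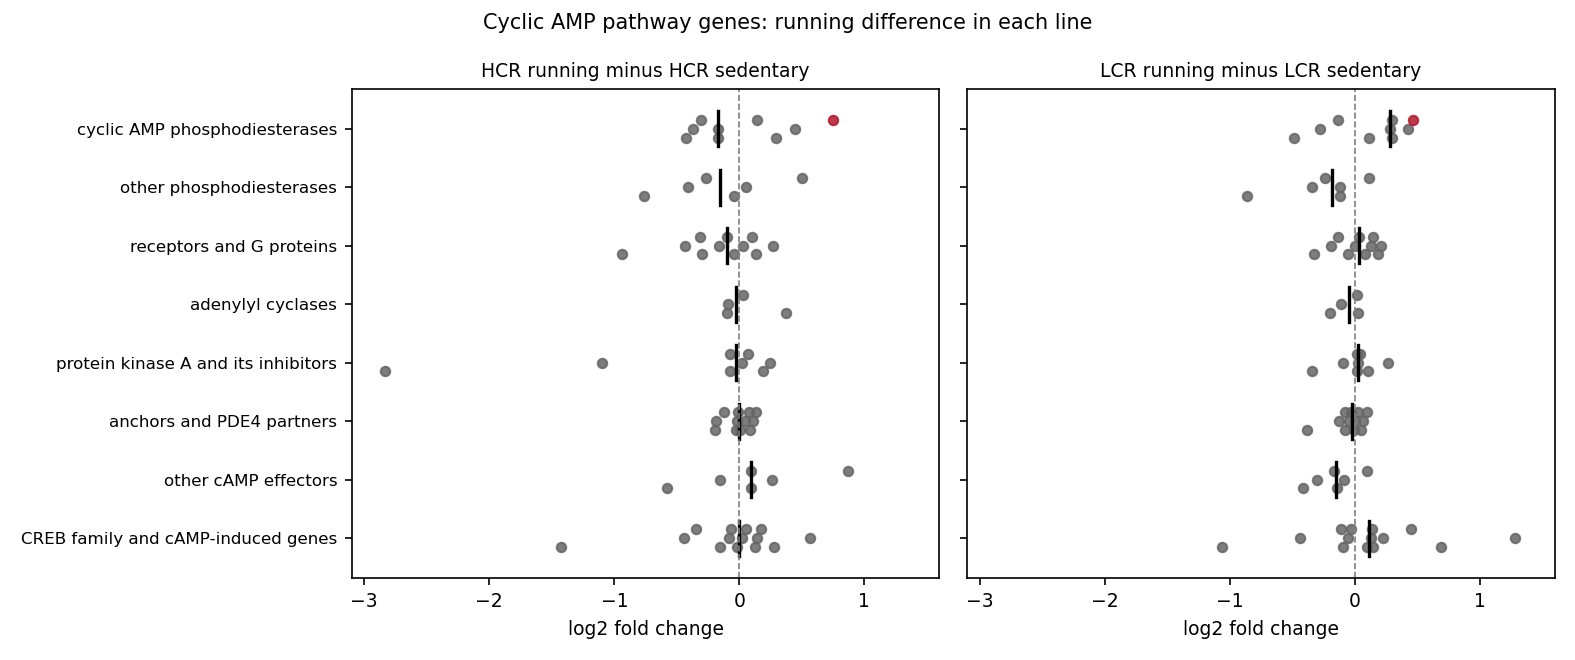
Log2 fold change with running in HCR and in LCR for each gene that passed the filter, by list, with Pde4d in red and the median of each list as a black line. Pde4d has the highest value among the cyclic AMP phosphodiesterases in both lines, at 0.75 and 0.46, and was picked out for that running difference. In these 2 comparisons 0 genes of the 7 other lists passed.

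Of the other cyclic AMP effectors, 6 of 9 passed the filter, and 1 of them was the 1 gene of the 61 that passed between running lines, where 0.626% of all tested genes passed. Hcn2, a channel opened by hyperpolarization and eased by cyclic AMP, was higher in HCR runners. It averaged 14.9 ± 4.28 CPM in HCR running and 5.79 ± 1.82 CPM in LCR running (SD, n = 5 each). The log2 difference was 1.39 with an SE of 0.33, and it passed (adjusted p = 0.0365 by edgeR's quasi-likelihood test). Within lines its running difference was 0.86 (SE 0.27) in HCR and -0.42 (SE 0.32) in LCR, and neither passed. The groups did not overlap, at 10.8 to 22.0 CPM in HCR running and 3.89 to 8.79 CPM in LCR running, on 8 to 31 counts a library. It was called in 19 of 26 refits leaving out 1 library, and not without LCR running 1, 2, 3 or 4 or HCR running 1, 3 or 5, where the adjusted p ranged up to 0.166. It did not pass without the 2 libraries with conflicting titles (adjusted p = 0.0569 by edgeR's quasi-likelihood test). Between sedentary rats 0 of the 61 passed by edgeR's quasi-likelihood test, DESeq2 or limma-voom, with 8 at an unadjusted p under 0.05 in edgeR, beside 15.9% of all tested genes. Over all tested genes 2.72% passed there.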

How the data were processed

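Soleus RNA of 26 rats was sequenced from transcript 3′ ends with oligo(dT) priming (QuantSeq FWD), per the labels' protocols. The submitters' processing notes name STAR, featureCounts, UMI-tools, cutadapt, FastQC, MultiQC and build mRatBN7.2 (rn7), without roles or versions. The treatment of molecular identifiers and strand in counting is not stated there. The authors deposited raw counts per gene as 1 matrix of 34034 rows.

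From these counts, genes were filtered by filterByExpr over groups (10064 left), scaled by TMM and fitted in edgeR 4.0.16 (R 4.3.3) with a group mean per group over all 26 libraries, using the robust quasi-likelihood F test and Benjamini-Hochberg adjustment at 0.05. CPM uses the filtered library size times the TMM factor, and log2 CPM a prior count of 2. The SE is the log2 fold change over the root of F. The common biological coefficient of variation was 0.156. Scripts were tested on simulated data. DESeq2 1.42.0, limma 3.58.1 (voom), other scalings, filters, line assignments and left-out libraries were the alternatives.

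The members and lists were chosen with earlier results of these data known. Pathway genes were named where called in any comparison, otherwise the 2 with the smallest p for running averaged over the lines. Genes like Pde4d were the 5 with the highest correlation. No 2 libraries of a group agreed within sampling noise (76 pairs, chi-square per gene 2.26 to 11.6). The labels do not say whether library numbers pair the samples, and the main fit did not pair them. Coordinates are given for promoters only, on GRCr8.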

Additional observations from a re-analysis of the deposited data

Results flagged for a closer look

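The running difference of Pde7a had opposite signs in the 2 lines. So did those of Pde3b (-0.43 in HCR and 0.30 in LCR), Pde7b (-0.17 and 0.12) and Pde4c (0.14 and -0.49). Pde7a was flagged because every runner lay on the same side within its line. For Pde7a, all 5 HCR runners lay below the HCR sedentary mean and all 5 LCR runners lay above the LCR sedentary mean. Its running difference in HCR minus that in LCR was -0.60 on the log2 scale (SE 0.24), and that of Pde3b was larger in size at -0.73 (SE 0.40). These differences were not tested, because the running contrasts were used in choosing the genes. For Pde7a, leaving out 1 library at a time gave -0.67 to -0.51. The value was -0.67 without the 2 libraries with conflicting titles. With the line taken from the titles it was -0.36, and 4 of 5 runners in each line, not 5, lay on the side named above.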

How the results depend on the processing

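No called result changed sign under the alternatives run. Over all genes, DESeq2 called 79 for running in HCR (10 in edgeR) and 80 averaged over the lines (38 in edgeR), where the replicate block left 19. Between running lines edgeR's 63 became 0 with the line taken from the titles, and 35 without the 2 libraries with conflicting titles or with only those groups fitted. Leaving out 1 library gave 4 to 38 for running in HCR, 9 to 63 averaged over the lines, 182 to 337 between sedentary lines (274 with all) and 32 to 67 between running lines. With the line taken from the titles, the Pde7a difference between running lines was -0.76, the difference of the Pde4d running responses was -0.00731, and 0 family members and 0 pathway genes passed between running lines. Without the 2 libraries with conflicting titles, 0 pathway genes passed there. Pathway genes passing for running averaged over the lines numbered 1 with no low-count filter (Ppargc1a) and 2 by DESeq2. The cause was not tested.

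Leaving out 1 library at a time gave 0.48 to 0.63 for Pde4a between sedentary lines, where 0 to 1 family members passed and 0 to 1 pathway genes passed, the 1 being Pkig without HCR sedentary 4. It gave 0 to 1 pathway genes between running lines. It also gave 0 to 1 for running averaged over the lines, the 1 being Ppargc1a without HCR sedentary 4 or LCR running 3.

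With a replicate block the Pde4d difference between running lines was 0.47 (adjusted p = 0.0480 by edgeR's quasi-likelihood test). That put 2 family members under the threshold, where 53 of all 10064 tested genes were. The p-value of Pde4d is not free of its choice from these libraries, so it adds no support. The numbers share no stated origin, and same-numbered libraries correlated between -0.22 and 0.26, so the block pairs libraries by number only. Over its alternatives other than leaving out 1 library, the adjusted p of Pde4d between running lines ranged between 0.0480 and 0.997. Fits on only the groups compared give no value for the averaged and response contrasts, which use all groups. Counts of 3 to 50 a library limit Pde4c, Pde7a, Pde3b and Pde3a, and Pde8b could not be tested.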
